A study of Mus musculus with 8 samples.

Results

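The protocadherins, the largest family of the cadherin adhesion proteins, are described here across embryonic stem cells and neural progenitors with and without Wdr68. Members were all genes whose symbol begins with Pcdh, 71 of the 24318 symbols in the tables. The rule itself uses no measured value, but it was set with earlier results of these data known. The study sequenced RNA of mouse E14 embryonic stem cells, abbreviated ESC, and of neural progenitors made from these cells, abbreviated NPC, for the wild type and for a line labelled as Wdr68 knockout. Wdr68, listed in the tables as Dcaf7, encodes a WD-repeat protein that the series' title ties to the PRC1-AUTS2 Polycomb complex and to differentiation. The 4 groups, E14-ESC, E14-NPC, Wdr68 KO-ESC and Wdr68 KO-NPC, held 2 libraries each. Both genotypes were kept as ESC in serum with LIF and inhibitors of MEK and GSK3, on feeder fibroblasts or gelatin. For NPC, cells of both genotypes were moved to gelatin, formed embryoid bodies in hanging drops of 500 cells for 2 days, stayed in suspension for 2 days without LIF or the inhibitors, and then had retinoic acid for 4 days. The labels do not say whether the knockout line is 1 clone or how it was made, nor whether the duplicates came from separate cultures, so the p-values speak only of how much these libraries vary, which may be technical.

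Protocadherins are single-pass membrane proteins with extracellular cadherin repeats that bind the same protein on a neighbouring cell. The clustered genes, named alpha, beta and gamma, lie side by side on one chromosome. Single neurons choose a few of their promoters, an arrangement that relies on CTCF and cohesin and gives each neuron a surface identity for self-avoidance. In the alpha and gamma clusters each variable first exon is spliced to constant exons shared by the whole cluster, while each beta gene is a single exon. The non-clustered protocadherins are scattered in the genome, and those of the delta groups steer cell sorting, migration, axon growth and synapse formation in the developing brain.

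Levels are given in FPKM, fragments per kilobase of a gene's transcript scaled to the size of the library, a length-corrected unit that can be compared between genes. Changes are differences in log2(FPKM + 1) with their standard error, and "rose" and "fell" mean an adjusted p under 0.05 in limma, over all genes tested. The 13318 genes tested reached 1 FPKM in 2 or more libraries. Among the members 38 met this limit, made up of 1 of 15 alpha, 13 of 22 beta, 18 of 22 gamma, 2 of 4 delta1 and 4 of 5 delta2 genes, and none of the 3 others (Pcdh12, Pcdh15 and Pcdh20). The other 33 were below it and are described by their values. The log2(FPKM + 1) scale understates the change of genes at low FPKM, which most protocadherins are. Fragments implied by the error bounds of the tables summed to 5996677 to 7942644 per library over all genes. Those of the protocadherins summed to 485.0 to 548.4 in the ESC libraries and 3233.3 to 4746.6 in the NPC libraries. Bounds wider than counting error lower such sums, so they are neither library sizes nor read counts.

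Dcaf7 was at 12.4 and 14.2 FPKM in wild-type ESC against 2.8 and 2.26 in knockout ESC, and at 27.2 and 29.6 in wild-type NPC and 8.36 and 8.99 in knockout NPC, so the transcript was lower, though present, in every library labelled as knockout. The labelled cell states were checked against marker lists. The summed level of 8 pluripotency markers was 3629.0 to 4201.0 FPKM in the ESC libraries and 7.44 to 14.7 in the NPC libraries. That of 10 neural progenitor markers was 274.0 and 276.0 FPKM in wild-type NPC against 46.5 and 50.2 in knockout NPC, where 9 of the 10 fell, including Sox2 (30.2 to 1.81 mean FPKM) and Pax6 (14.3 to 2.69). All 12 neuron markers fell too, from a sum of 408.0 and 430.0 FPKM to 21.2 and 25.8. No defining marker of either list was under 0.01 FPKM in both libraries of an NPC group. The libraries labelled knockout NPC thus carried the neural progenitor label with low levels of its markers. Endothelial markers were at 17.3 and 16.5 FPKM in wild-type NPC and 41.8 and 41.9 in knockout NPC (6 of 9 rose), and endoderm markers at 28.1 and 22.3 against 68.7 and 59.0 (3 of 6 tested rose, 1 fell). Markers of feeder fibroblasts and mesenchyme were at 122.0 and 139.0 FPKM against 123.0 and 106.0 (1 of 10 rose, 6 fell), and those of glia at 4.97 and 5.96 against 5.04 and 4.72 (0 of 3 tested passed). Among all genes tested 14.7% were higher and 12.7% lower between these NPC groups. These marker levels move with every protocadherin difference between the NPC groups given next, and their part in those differences was not tested. In such bulk samples fewer cells of a type and less RNA per cell cannot be told apart.

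In ESC most of the family outside the gamma cluster was at or near 0. Per library 4 or 5 of the 71 members reached an FPKM of 1 in ESC, against 32 and 32 in wild-type NPC and 25 and 27 in knockout NPC. Between 37 and 41 members were under 0.01 FPKM in each ESC library, and 29 were so in all 4 of them. No member passed the test between knockout and wild-type ESC: the count in limma was 0 of 38, and 0 had an unadjusted p under 0.05, while 0.248% of all genes tested passed. In NPC 13 of the 38 differed between the genotypes, 5 higher and 8 lower in the knockout, where 27.4% of all genes tested were called (14.7% higher and 12.7% lower). Of those lower, Pcdh19, Pcdh8, Pcdh10, Pcdha4, Pcdhb2, Pcdhb6 and Pcdhb12 reached 1 FPKM only in wild-type NPC. Of those higher, Pcdhgc4 reached it only in knockout NPC. These genes passed the filter through the group where they were high, so the counts are a description. With median-ratio scaling 3 members were higher and 8 lower, and the balance over all genes turned from 1962 higher and 1686 lower to 1504 higher and 1795 lower. With the second knockout NPC library left out 6 were called, all lower, and with both NPC groups fitted alone 7 were called, 2 higher and 5 lower. Taking all 71 members and counting values under 0.01 as equal, both knockout NPC libraries lay above both wild-type ones for 12 and below them for 26, and the groups overlapped for 33. Among the 19233 genes with any signal, both libraries lay above for 29.6% and below for 23.5%. Without the filter on low values 4 of the 71 members rose and 17 fell, beside 9.83% higher and 9.53% lower among the 19233 genes. Where counts of all genes are given beside them, the share of members on the lower side was above that of all genes. The share on the higher side was below it. No such share is given for the fit without the second knockout NPC library or for that of the NPC groups alone. Both directions occurred among the subfamilies. Members that share reads are not independent counts, and the family was not tested as a set.

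**Figure D1:**
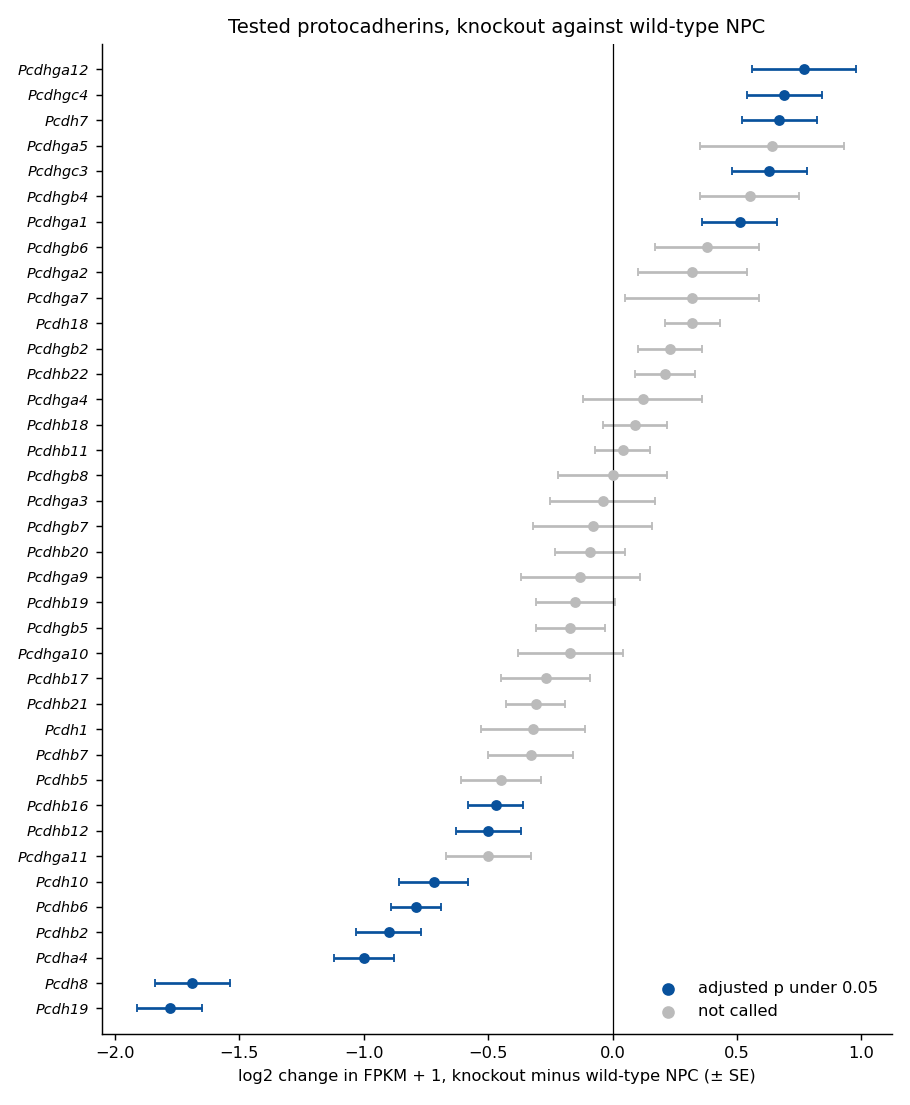
Difference between knockout and wild-type NPC for the 38 protocadherins tested, as the change in log2(FPKM + 1) with bars of 1 SE (2 libraries per group), sorted by size. Blue points passed an adjusted p under 0.05. Pcdh19 and Pcdh8 stand apart at -1.78 and -1.69, and the genes on the higher side are gamma genes and Pcdh7 among those called.

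Differentiation of the wild type raised 31 of the 38 members tested and lowered 1, where 72.6% of all genes tested were called, 41.6% higher and 31.1% lower. Most members passed the filter only through their NPC levels, so that these counts are a description and not support for a rise of the family. In the knockout 27 rose and 0 fell, where 70.3% of all genes were called, 41.6% higher and 28.8% lower. Without the filter, all 71 members entered the test. Then 53 rose and 1 fell in the wild type, and 41 rose and 0 fell in the knockout, beside 55.0% and 52.2% of the 19233 genes called in either direction. The median of all genes tested was 0.15 in the wild type and 0.17 in the knockout, and 0.04 and 0.03 with median-ratio scaling, a shift that is small beside the changes named here. With that scaling 29 members rose and 1 fell in the wild type, and 26 rose and 1 fell in the knockout. Between ESC and NPC, medium, aggregation and time in culture differed together with the cell state. The comparisons of differentiation and of genotype share libraries, so their values are given side by side for each gene.

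Among the delta2 genes, Pcdh19, an X-linked gene whose loss in humans causes an epilepsy of heterozygous females, had the largest fall. Its level was 3.77 and 3.14 FPKM in wild-type NPC and 0.358 and 0.227 in knockout NPC, and 0.397, 0.536, 0.542 and 0.42 in the 2 wild-type and 2 knockout ESC libraries. Both knockout NPC libraries thus lay below both wild-type NPC libraries and below all 4 ESC libraries. The fall in NPC was -1.78 ± 0.13 (adjusted p = 1.3e-04), and it was called under all 10 alternatives. Pcdh19 rose by 1.6 ± 0.13 when the wild type differentiated (adjusted p = 3.0e-05), and the change in the knockout was -0.2 ± 0.13 (adjusted p = 0.216).

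Pcdh8, known as arcadlin for its part in removing N-cadherin from active synapses, and as a gene of the paraxial mesoderm, was at 3.6 and 2.5 FPKM in wild-type NPC and at 0.172 and 0.318 in knockout NPC. It was under 0.01 in both wild-type ESC libraries and at 0.0248 or less in knockout ESC. The wild-type NPC libraries were therefore the 2 that held most of its RNA, with 154.7 and 78.7 implied fragments against 5.4 and 13.1 in knockout NPC. Pcdh8 fell by 1.69 ± 0.15 in knockout NPC (adjusted p = 3.1e-04), again under all 10 alternatives. Its rise was 2.0 ± 0.15 in the wild type (adjusted p = 2.0e-05), and in the knockout the change was 0.3 ± 0.15 (adjusted p = 0.119). The summed markers of paraxial mesoderm were at 30.3 and 25.7 FPKM in wild-type NPC and 36.9 and 33.9 in knockout NPC, where 3 of 6 tested rose and 1 fell.

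Pcdh10, which links to the actin regulator Nckap1 in axon growth, was at 1.8 and 1.21 FPKM in wild-type NPC and 0.579 and 0.44 in knockout NPC, without overlap. The fall was -0.72 ± 0.14 (adjusted p = 0.00955), and it was not called when only the NPC libraries were fitted (adjusted p = 0.0506). Pcdh10 rose in both genotypes, by 1.3 ± 0.14 in the wild type (adjusted p = 1.3e-04) and 0.55 ± 0.14 in the knockout (adjusted p = 0.0102). Pcdh8 and Pcdh19 passed in the wild type only, though both knockout NPC libraries were above both knockout ESC ones for Pcdh8. Pcdh18, which binds the adaptor Dab1, had the highest NPC level of the non-clustered genes. It was at 12.3 and 11.5 FPKM in wild-type NPC, 14.8 and 15.5 in knockout NPC, and 0.0175 to 0.0607 in ESC. The 2 NPC groups did not overlap, but the difference of 0.32 ± 0.11 did not pass (adjusted p = 0.0689). Its rises on differentiation, 3.62 ± 0.11 in the wild type and 3.98 ± 0.11 in the knockout, were the largest of the family (adjusted p = 3.9e-07 and 3.1e-07). Pcdh17, which gathers WAVE regulators at developing synapses, stayed below the filter at 0.777 and 0.695 FPKM in wild-type NPC and 0.777 and 0.952 in knockout NPC, and its groups overlapped.

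Of the delta1 genes, Pcdh7, also called NF-protocadherin for its role in the neural fold and in axons, was on the higher side. It was under 0.01 FPKM in all 4 ESC libraries, at 2.72 and 3.32 in wild-type NPC, and at 4.68 and 6.15 in knockout NPC. The difference between the NPC groups was 0.67 ± 0.15 (adjusted p = 0.0155), and the call was lost when the first wild-type or the second knockout NPC library was left out, with a pseudocount of 0.1, and when only the NPC groups were fitted (highest adjusted p = 0.0799). Pcdh7 rose in both genotypes, by 2.0 ± 0.15 and 2.67 ± 0.15 (adjusted p = 1.7e-05 and 4.9e-06). Pcdh1, an adhesion protein of airway epithelium, had overlapping groups in NPC, with 1.22 and 2.13 FPKM in the wild type and 0.884 and 1.37 in the knockout. Pcdh9 was at 0.749 and 0.919 FPKM in wild-type NPC and 0.857 and 1.12 in knockout NPC, and the X-linked Pcdh11x at 0.354 and 0.17 against 0.342 and 0.537. Both pairs of groups overlapped, and both genes were below the filter.

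The 3 remaining genes were all under 1 FPKM. Pcdh12, a protocadherin of endothelial cells, was at 0.194 and 0.102 FPKM in wild-type NPC and 0.352 and 0.389 in knockout NPC, and under 0.01 in every ESC library. It rose when genes were tested without the filter on low values (0.26 ± 0.05, adjusted p = 0.0196), and its fragments were few, 13.0 and 5.0 against 22.0 and 25.8. The endothelial markers whose sums are given above were higher in the same libraries, and Pecam1 (2.31 to 10.1 mean FPKM) and Cdh5 (2.88 to 6.46) were among those that rose. Pcdh20 went the other way, from 0.415 and 0.283 FPKM to 0.0342 and 0.048, and it fell in the test without the filter (-0.37 ± 0.05, adjusted p = 0.00668). Without the filter 19.4% of 19233 genes were called in this comparison, 9.83% higher and 9.53% lower. Pcdh15, a component of the tip links of sensory hair cells, was at 0.0738 FPKM or less in every library.

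**Figure D2:**
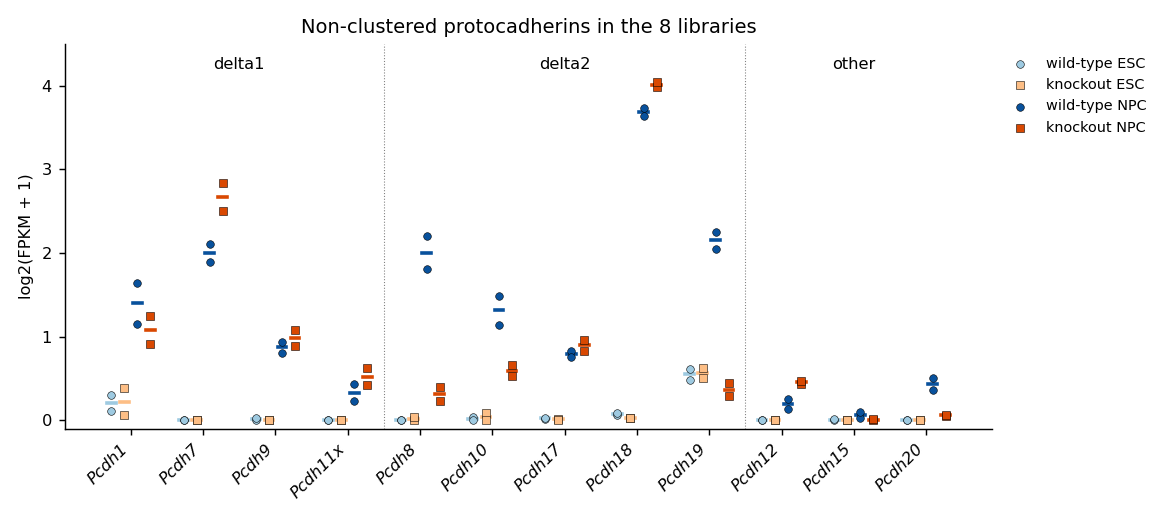
Levels of the 12 non-clustered protocadherins in the 8 libraries, as log2(FPKM + 1), with 1 point per library and a bar at the group mean (2 libraries each). ESC points lie near 0 except for Pcdh19 and Pcdh1. Pcdh19, Pcdh8 and Pcdh10 are lower, and Pcdh7 higher, in knockout than in wild-type NPC.

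The promoters of the 4 non-clustered genes called between the NPC groups are shown because 3 of them fell and 1 rose, and because Polycomb complexes are known to bind CpG-rich promoters. No binding was measured here. RefSeq sequence on GRCm38.p6 was available for 9 of the 71 members, and what follows is the 250 bases before each start, 5′ to 3′ on the gene's strand, with every CG in capitals.
Pcdh19, chrX:133688994-133689243, minus strand: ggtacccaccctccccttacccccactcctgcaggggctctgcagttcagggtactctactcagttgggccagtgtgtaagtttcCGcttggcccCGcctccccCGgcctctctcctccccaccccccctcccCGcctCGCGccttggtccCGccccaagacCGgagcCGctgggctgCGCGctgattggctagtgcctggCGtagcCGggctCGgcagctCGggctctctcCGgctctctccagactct
Pcdh8, chr14:79771313-79771562, minus strand: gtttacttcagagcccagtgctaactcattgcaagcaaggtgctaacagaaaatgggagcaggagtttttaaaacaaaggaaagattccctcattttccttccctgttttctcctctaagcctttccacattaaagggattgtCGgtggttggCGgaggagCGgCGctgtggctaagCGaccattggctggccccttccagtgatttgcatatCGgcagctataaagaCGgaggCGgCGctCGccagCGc
Pcdh10, chr3:45378148-45378397, plus strand: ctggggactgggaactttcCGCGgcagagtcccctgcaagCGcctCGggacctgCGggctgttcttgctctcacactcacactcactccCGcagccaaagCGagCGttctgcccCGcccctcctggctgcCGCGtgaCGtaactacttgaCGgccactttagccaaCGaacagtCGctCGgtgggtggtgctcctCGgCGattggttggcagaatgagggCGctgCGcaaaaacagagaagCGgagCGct
Pcdh7, chr5:57717831-57718080, plus strand: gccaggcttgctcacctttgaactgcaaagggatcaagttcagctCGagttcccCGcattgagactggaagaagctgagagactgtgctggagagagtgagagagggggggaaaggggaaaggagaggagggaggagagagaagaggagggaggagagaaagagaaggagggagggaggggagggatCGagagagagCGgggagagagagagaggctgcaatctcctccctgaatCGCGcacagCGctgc
Pcdh10 held 22 CG, Pcdh19 16, Pcdh8 11 and Pcdh7 7, beside a median of 6 over the 32851 promoters of the table. Pcdh7, the gene that rose, had the fewest of the 4. Pcdh20, which fell only in the test without the filter, had fewer still, 3. The other members with sequence were not called between the genotypes. They were Pcdh18 with 23, Pcdh17 with 21, Pcdh9 with 18 and Pcdh15 with 6. The number of CG thus did not go with the direction of the difference among these genes. An E-box, CANNTG, the kind of site that neural bHLH factors use, occurred once in Pcdh19 and not in the other sequences shown, while 66.2% of all promoters held at least one. AGGTCA, the half-site of retinoic acid receptors, was searched on both strands and occurred in none of the 4, as it was absent from 86.0% of all promoters. The first transcribed bases after the Pcdh19 start were not found in the annotated transcripts of that build, so its start is less certain than the other 3.

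In knockout NPC the alpha and beta clusters were lower than in the wild type and the gamma cluster was higher. Summed over its 15 entries, the alpha cluster was at 5.58 and 4.25 FPKM in wild-type NPC and 0.958 and 0.709 in knockout NPC, a ratio of means of 0.17. The beta cluster of 22 genes was at 35.2 and 30.0 FPKM against 24.6 and 25.7, a ratio of 0.77. The gamma cluster of 22 genes was at 35.5 and 37.9 FPKM against 51.6 and 49.9, a ratio of 1.38. In none of the 3 did the genotypes overlap in NPC. These sums are descriptions with no test. They are used because the 14 alpha genes within the cluster end within 3 bp of each other and the 22 gamma genes within 9 bp in the tables, so that reads from the shared constant exons were divided among them by Cufflinks' estimate. One entry listed with the alpha genes, Pcdha7-g, spans both clusters, and it was under 0.01 FPKM in 7 of the 8 libraries and at 0.0321 in the other one. By the tables' mm9 positions the clusters follow each other on chromosome 18 as alpha (start 37089938, end 37347314), beta (start 37424651, end 37681073) and gamma (start 37821598, end 38001526).

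**Figure D3:**
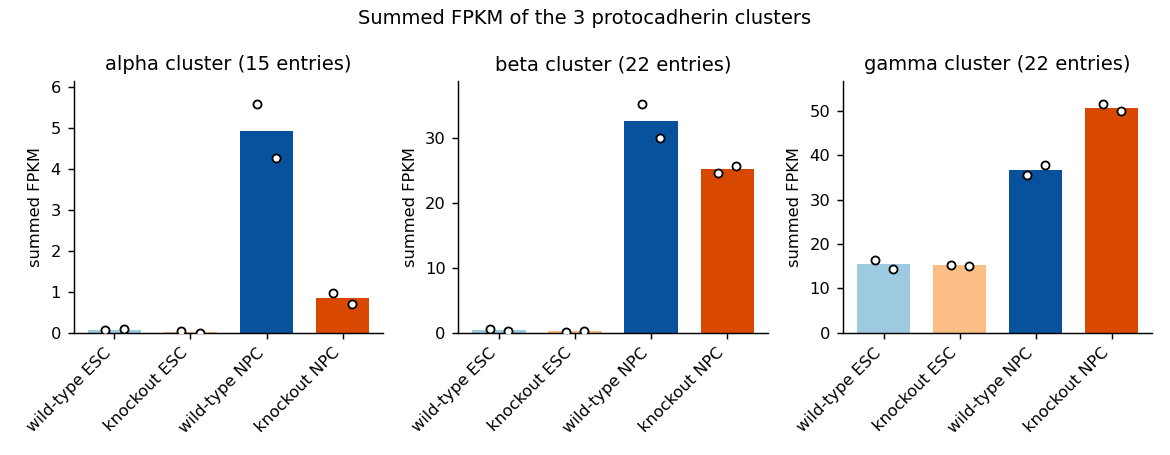
Summed FPKM of the alpha, beta and gamma clusters in each group, with bars at the mean of 2 libraries, points for the libraries and axes that start at 0 but differ in scale. In NPC the knockout is at 0.17 of the wild-type mean for alpha, 0.77 for beta and 1.38 for gamma, and gamma is the 1 cluster of the 3 whose ESC level can be read from the plot.

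In ESC the alpha sum was 0.0783 FPKM or less in all 4 libraries and the beta sum 0.577 or less, on at most 2.7 and 15.6 implied fragments. The gamma sum was 16.4 and 14.4 FPKM in wild-type ESC against 15.2 and 15.1 in knockout ESC, with overlapping groups. The gamma cluster thus had the highest of the 3 sums in ESC of either genotype. Outside the clusters Pcdh19 was also detected in every ESC library, on 34.2 to 54.6 implied fragments. From ESC to NPC the gamma mean was 2.38 times higher in the wild type and 3.34 times in the knockout. The alpha and beta rises are larger but start from a few fragments, so no ratio is given for them.

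Among the alpha genes, which neurons of the forebrain use and which couple through their constant region to the kinases Fyn and Pyk2, Pcdha4 was the only one above the filter. It was at 1.21 and 1.15 FPKM in wild-type NPC, under 0.01 in the first and at 0.188 in the second knockout NPC library, and under 0.01 in ESC. Its fall of -1.0 ± 0.12 (adjusted p = 0.00111) was called under all 10 alternatives. It rose by 1.12 ± 0.12 in the wild type (adjusted p = 1.0e-04), and its change in the knockout was 0.12 ± 0.12 (adjusted p = 0.373). For 9 of the 15 alpha entries both knockout NPC libraries were below both wild-type ones, and for none above, beside the 23.5% and 29.6% of all genes. Without the filter 6 alpha genes fell and 0 rose, beside 9.53% lower and 9.83% higher among the 19233 genes. The 6 were Pcdha4, Pcdha2, Pcdha3, Pcdha6, Pcdha10 and Pcdha12, with changes from -0.28 (Pcdha6, adjusted p = 0.0383) to -1.0 (Pcdha4). Each of the 6 rested on 7.4 implied fragments or fewer in either knockout NPC library. Pcdha2, the next highest in wild-type NPC, was at 0.759 and 0.718 FPKM against 0.186 and 0.0769. Pcdhac1 and Pcdhac2, the C-type genes at the end of the cluster, averaged 0.0783 and 0.121 FPKM in wild-type NPC and overlapped with the knockout.

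The beta genes, whose proteins lack the constant region of the other clusters, had members on both sides of no change. In NPC 4 of the 13 tested fell and 0 rose, beside 12.7% lower and 14.7% higher among all genes tested. The median change was -0.31, against 0.05 for all genes tested. Pcdhb2 was at 1.69 and 1.79 FPKM in wild-type NPC and 0.318 and 0.642 in knockout NPC, and it fell by 0.9 ± 0.13 (adjusted p = 0.00273). Pcdhb6 was at 1.13 and 1.14 FPKM against 0.203 and 0.267, and it fell by 0.79 ± 0.1 (adjusted p = 0.00145) on 5.0 and 7.0 implied fragments in the knockout. Both were called under all 10 alternatives. Pcdhb12, at 1.6 and 1.08 FPKM against 0.699 and 0.598, fell by 0.5 ± 0.13 (adjusted p = 0.0322). Pcdhb16, at 1.62 and 1.95 FPKM against 1.07 and 0.954, fell by 0.47 ± 0.11 (adjusted p = 0.0206). Neither group pair overlapped. Both calls were lost with a pseudocount of 0.1, when only the NPC groups were fitted, and when single libraries were left out (highest adjusted p = 0.115 and 0.1). The libraries were the first wild-type or either knockout one for Pcdhb12, and the second wild-type or the second knockout one for Pcdhb16. Pcdhb3, Pcdhb4 and Pcdhb10 fell only in the test without the filter. Pcdhb10 went from 0.853 and 0.762 FPKM to 0.261 and 0.0611.

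The beta genes with the highest levels were not among those called. Pcdhb22, the highest of the cluster, was at 5.06 and 5.04 FPKM in wild-type NPC and 5.8 and 6.25 in knockout NPC, the 1 beta gene whose knockout libraries were both above. Its difference of 0.21 ± 0.12 did not pass (adjusted p = 0.223). Pcdhb11 was at 2.91 and 2.46 FPKM against 2.84 and 2.74, and Pcdhb20 at 3.33 and 2.49 against 2.54 and 2.76. Pcdhb17 was at 3.1 and 2.78 FPKM against 1.71 and 2.92, and Pcdhb19 at 2.32 and 1.53 against 1.84 and 1.39. The groups overlapped for these 4 genes. All 13 beta genes tested rose on differentiation in both genotypes, where 41.6% of all genes tested were higher in each. None was above 0.186 FPKM in an ESC library, so all 13 passed the filter through NPC alone. Their rises are thus no support for a rise of the cluster. Pcdhb22 led with 2.43 ± 0.12 in the wild type and 2.68 ± 0.12 in the knockout (adjusted p = 2.4e-06 and 1.7e-06). Next in the wild type were Pcdhb20 (1.89 ± 0.14), Pcdhb11 (1.87 ± 0.11) and Pcdhb17 (1.79 ± 0.18).

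Position in the beta cluster went with the size of the difference. The first 11 genes in genomic order, Pcdhb1 to Pcdhb11, summed to 12.2 and 10.6 FPKM in wild-type NPC and 6.77 and 6.44 in knockout NPC, a ratio of 0.579. The last 11, Pcdhb12 to Pcdhb22, summed to 23.0 and 19.5 FPKM against 17.9 and 19.2, a ratio of 0.873. Across 21 beta genes (Pcdhb1, under 0.01 FPKM in both knockout NPC libraries, is left out) the ratio of means ran from 0.199 to 1.19 with a median of 0.613, and its Spearman correlation with genomic order was 0.66. The wild-type level also rose along the cluster (0.57), and it had a correlation of 0.41 with the ratio. These are descriptions over genes that share libraries and are close paralogs, between which reads can be misassigned. The same correlation with order was 0.28 over 13 alpha genes and 0.01 over 22 gamma genes.

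**Figure D4:**
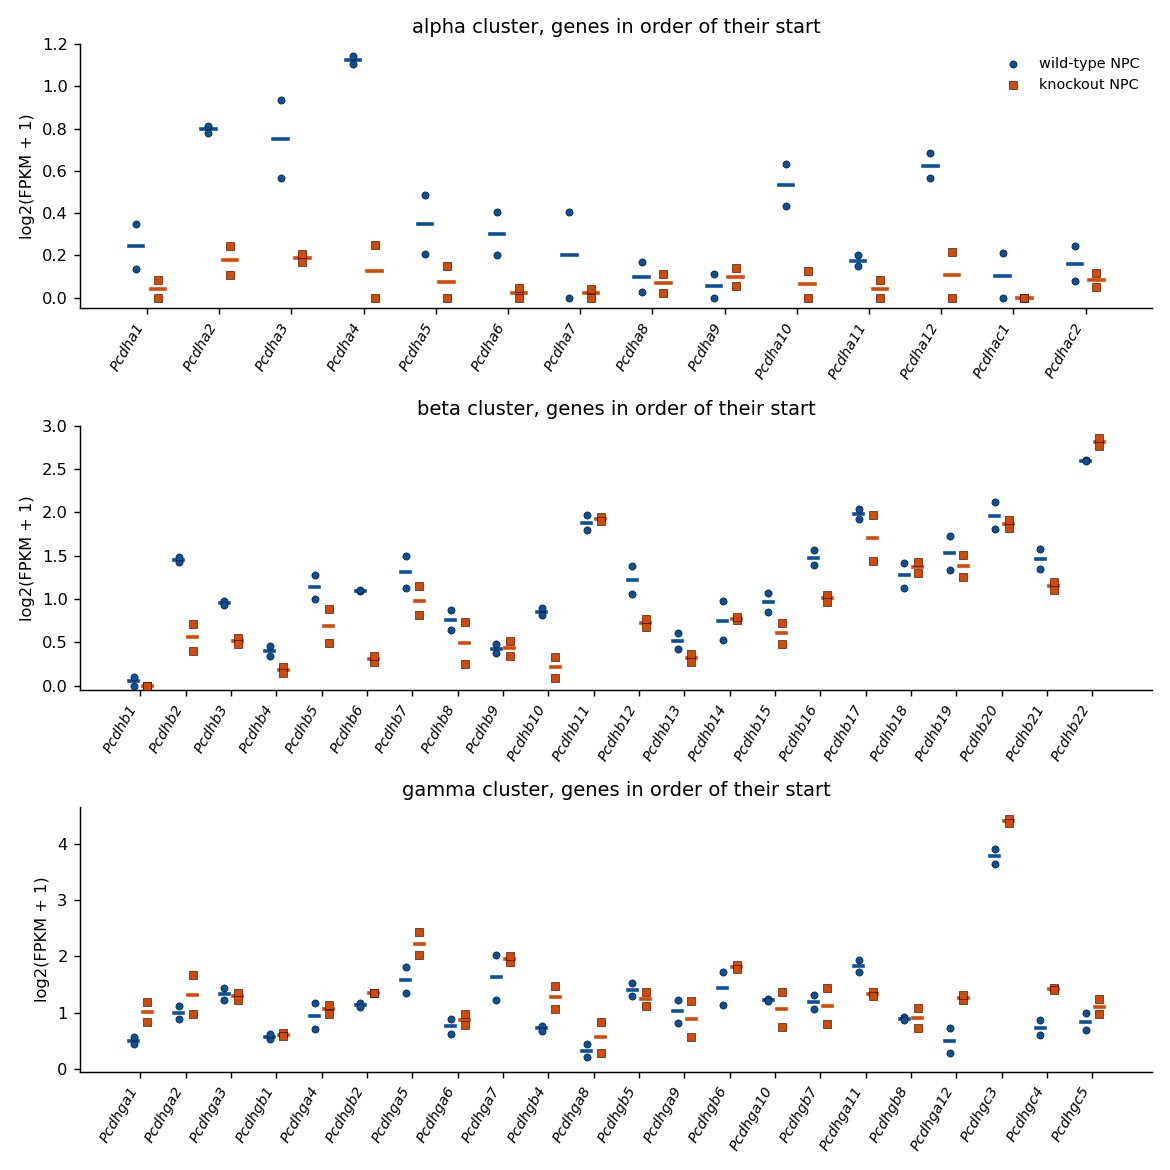
Levels of the clustered genes in wild-type NPC (circles) and knockout NPC (squares) as log2(FPKM + 1), 1 point per library with a bar at the mean, genes in order of their start in each cluster. Most alpha pairs have the knockout lower, the early beta genes differ more than Pcdhb17 to Pcdhb22, and Pcdhgc3 is far above the other gamma genes.

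The gamma genes, needed for the survival of spinal interneurons and for dendrite self-avoidance, held the 4 other members that were higher in knockout NPC. Pcdhgc3, a C-type gene with broad expression in the nervous system, had the highest level of the family. It was at 5.3 and 3.82 FPKM in ESC of the wild type, 3.77 and 3.88 in those of the knockout, 11.6 and 14.1 in wild-type NPC, and 20.8 and 19.9 in knockout NPC. It rose in knockout NPC by 0.63 ± 0.15 (adjusted p = 0.0208). Its share of the gamma sum was 29.6% in wild-type ESC, 25.2% in knockout ESC, 35.1% in wild-type NPC and 40.2% in knockout NPC. Without Pcdhgc3 the gamma sum was 23.9 and 23.7 FPKM in wild-type NPC and 30.7 and 30.0 in knockout NPC, a ratio of 1.27. The ratio was 1.25 for the 12 A-type genes, 1.2 for the 7 B-type genes and 1.62 for the 3 C-type genes.

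Pcdhgc4, the C-type gene that neurons need to survive, was at 0.818 and 0.518 FPKM in wild-type NPC and 1.7 and 1.65 in knockout NPC (0.69 ± 0.15, adjusted p = 0.0145). Pcdhga12 was at 0.647 and 0.215 FPKM against 1.33 and 1.49 (0.77 ± 0.21, adjusted p = 0.0363). Pcdhga1 was at 0.351 and 0.481 FPKM against 0.77 and 1.28 (0.51 ± 0.15, adjusted p = 0.0496). In all 4 called gamma genes the NPC groups did not overlap, but each call was lost when the second knockout NPC library was left out, and each but that of Pcdhga1 when the first one was. Leaving out the first wild-type NPC library ended the calls of Pcdhgc3 and Pcdhga1, and leaving out the second one those of Pcdhgc4, Pcdhga12 and Pcdhga1. Over all alternatives the highest adjusted p of the 4 was 0.197, for Pcdhga1. Pcdhga1 and Pcdhga12 were also not called with median-ratio scaling, without the filter or with only the NPC groups fitted, and Pcdhga12 and Pcdhgc4 not with a pseudocount of 0.1.

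Over the whole gamma cluster both knockout NPC libraries lay above both wild-type ones for 8 of 22 genes and below for 1, where all genes gave 29.6% above and 23.5% below, so the share above was near that of all genes. The 1 below was Pcdhga11, at 2.29 and 2.82 FPKM against 1.57 and 1.44, and at 1.38 and 1.12 in wild-type and 1.84 and 1.17 in knockout ESC. Pcdhga1 was also the 1 member that fell when the wild type differentiated, from 1.13 and 1.42 FPKM in ESC (-0.68 ± 0.15, adjusted p = 0.00545). In the knockout its change from 1.67 and 1.58 FPKM in ESC was -0.39 ± 0.15 (adjusted p = 0.0577). Of the 18 gamma genes tested, 11 rose and 1 fell on differentiation of the wild type, and 10 rose in the knockout. Among all genes tested 41.6% were higher in either genotype, and 31.1% and 28.8% were lower. Pcdhgc3 rose by 1.33 ± 0.15 in the wild type and 2.15 ± 0.15 in the knockout (adjusted p = 1.5e-04 and 1.5e-05). The next largest gamma rises in the knockout were those of Pcdhga5 to 4.4 and 3.07 FPKM (1.65 ± 0.29), Pcdhgb6 to 2.6 and 2.42 (1.5 ± 0.21) and Pcdhga7 to 2.74 and 3.01 (1.48 ± 0.27). Pcdhga5 was at 1.55 and 2.53 FPKM in wild-type NPC, Pcdhgb6 at 1.21 and 2.3, and Pcdhga7 at 3.08 and 1.35.

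The knockout effect differed between NPC and ESC for 8 of the 38 members tested, where 16.8% of all genes tested were called, 8.41% higher and 8.39% lower. The difference was negative for Pcdh19, Pcdh8, Pcdha4, Pcdhb2, Pcdhb6 and Pcdh10 and positive for Pcdhgc3 and Pcdhgc4. Those of Pcdh19, Pcdh8, Pcdha4 and Pcdhb6 were called under all 13 alternatives. The 2 positive ones were called under few alternatives, 2 of 13 for Pcdhgc3 and 3 of 13 for Pcdhgc4. Both were lost with median-ratio scaling, with a pseudocount of 0.1, without the filter and with the replicate block. With 1 of the 8 libraries left out, Pcdhgc3 was called only without the second wild-type ESC library, and Pcdhgc4 only without the first wild-type ESC or the first wild-type NPC library. Those of Pcdhb2 and Pcdh10 were lost with a pseudocount of 0.1 and when any 1 of the 4 ESC libraries was left out, and that of Pcdh10 also without the first wild-type or either knockout NPC library. Except for Pcdh19, Pcdhgc3 and Pcdhgc4 these genes were at 0.0629 FPKM or less in every ESC library, so that a lower level in knockout ESC was not detectable at this depth.

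Other large cadherins with adhesion and planar polarity roles, the FAT, Dachsous and CELSR genes, were listed for comparison together with Fjx1, which is no cadherin but a kinase of the same pathway. Of the 8 genes of this list tested, Fjx1 included, 1 rose and 5 fell in knockout NPC, with a median change of -0.69 against 0.05 for all genes. Among all genes tested 14.7% were higher and 12.7% lower. Fjx1 was among the 5, at 3.94 and 3.6 FPKM in wild-type NPC and 2.44 and 1.88 in knockout NPC (-0.6 ± 0.18, adjusted p = 0.044). Celsr2, which guides axons and ciliary planar polarity, was at 23.4 and 19.1 FPKM in wild-type NPC and 0.731 and 1.61 in knockout NPC (-3.38 ± 0.24, adjusted p = 1.1e-04). Celsr3, needed for axon tracts, was at 5.02 and 4.18 FPKM against 0.22 and 0.376 (-2.11 ± 0.14, adjusted p = 9.0e-05). Fat3, which shapes dendrites of retinal neurons, was at 2.68 and 2.66 FPKM against 0.909 and 1.01 (-0.91 ± 0.1, adjusted p = 8.9e-04). Fat4 was the gene that rose, from 4.48 and 4.63 FPKM to 7.9 and 8.27. On differentiation 7 of the 8, all but Fjx1, rose in the wild type, led by Celsr2 (4.01 ± 0.24), and 4 rose and 1 fell in the knockout. Among all genes tested 41.6% were higher in either genotype. None of the 8 passed between the ESC groups, nor did any protocadherin.

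Of the genes that act with protocadherins in signalling, 2 of 16 tested rose and 3 fell in knockout NPC, and 0 passed in ESC, with a median change of -0.1 in NPC. Among all genes tested 14.7% were higher and 12.7% lower in knockout NPC, shares near the counts of this list. On differentiation 11 rose and 2 fell in the wild type, and 10 and 2 in the knockout. Among all genes 41.6% were higher in either genotype, and 31.1% and 28.8% were lower. Ret, a receptor kinase that associates with alpha and gamma protocadherins, was at 2.7 and 3.16 FPKM in wild-type NPC and 0.309 and 0.344 in knockout NPC (-1.57 ± 0.11, adjusted p = 1.1e-04). Wasf3, a WAVE protein, was at 7.09 and 5.48 FPKM against 2.15 and 2.92, and Abi1, another part of the WAVE complex, at 24.6 and 20.6 against 39.7 and 35.2. Cdh2, the N-cadherin that binds delta2 protocadherins, averaged 38.4 FPKM in wild-type NPC and 30.3 in knockout NPC and did not pass (-0.33 ± 0.11, adjusted p = 0.0585). Of 18 regulators of the clustered genes, 2 rose and 0 fell in knockout NPC, with a median change of 0.18, and 0 passed in ESC. On differentiation 5 of them rose and 10 fell in the wild type, and 7 rose and 5 fell in the knockout. The shares of all genes given above stand beside these counts too. The 2 that rose in knockout NPC were Dnmt3a, a DNA methyltransferase, at 20.5 and 18.9 FPKM against 28.9 and 26.9 (0.48 ± 0.11, adjusted p = 0.0172), and Stag1, a cohesin subunit (0.31 ± 0.07, adjusted p = 0.0185). Ctcf, which anchors the promoter loops of the clusters, averaged 42.5 FPKM in wild-type NPC and 49.4 in knockout NPC and did not pass (0.21 ± 0.09, adjusted p = 0.13).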

How the data were processed

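Poly(A) RNA from 8 libraries was sequenced with a directional kit, per the labels' protocols. Per the submitters' processing notes, TopHat2 2.1.1, Cufflinks 2.2.1 and mm9 were used; the deposited tables hold the authors' FPKM per gene with the bounds of its 95% interval, and no counts. Entries of 1 symbol were summed, which touched no protocadherin. Fragments behind a value were implied from the upper bound, taken to lie 2 square roots of the fragment number above it. This holds where the bound covers counting error only, and a wider bound gives too low a number. In the first wild-type libraries Pou5f1 had 838.0 FPKM on 2748.9 implied fragments in ESC and 2.8 FPKM on 36.2 in NPC. Values under 0.01 FPKM are given as such, since some are near-zero estimates. No protocadherin had an estimate marked as failed, and symbols with such an estimate were left out.

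Genes were fitted as log2(FPKM + 1) with limma 3.58.1 (trend) in R 4.3.3, with 4 group means, 4 residual degrees of freedom, two-sided tests and Benjamini-Hochberg adjustment over all 13318 genes per contrast. The procedure was tested on simulated data in which only genes above the level of most protocadherins were changed, all by the same amount. It therefore cannot speak for genes as low as most members or for smaller changes. Alternatives were a pseudocount of 0.1, no filter (19233 genes), median-ratio scaling, fits of only the groups compared, the highest entry per symbol, each library left out, and a replicate block. Of 122 genes in 11 comparison and marker lists, 121 matched by symbol. Values per library are printed for members called in a knockout contrast or in the difference of effects, up to 10 of the largest rises and falls in each differentiation contrast and the 5 highest; other members are summarised or were named after their values were seen. Members and lists were chosen with earlier results of these data known.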

Additional observations from a re-analysis of the deposited data

Results flagged for a closer look

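The effect of the knockout in NPC minus that in ESC passed the test of this difference in limma (adjusted p under 0.05 over 13318 genes) for 8 protocadherins. Each value is on the log2(FPKM + 1) scale. The difference was -1.8 for Pcdh19 (adjusted p = 0.00133), -1.71 for Pcdh8 (0.00288), -1.0 for Pcdha4 (0.00871), -0.9 for Pcdhb2 (0.0188), -0.79 for Pcdhb6 (0.0112) and -0.75 for Pcdh10 (0.0454). It was 0.82 for Pcdhgc3 (0.0407) and 0.82 for Pcdhgc4 (0.0401). Pcdh8, Pcdha4, Pcdhb2, Pcdhb6 and Pcdh10 were at 0.0629 FPKM or less in every ESC library. A lower level in knockout ESC was not detectable for them, so their difference largely restates the fall in NPC. Over the alternatives the highest adjusted p was 0.0098 for Pcdh19 and 0.159 for Pcdhgc4.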

How the results depend on the processing

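No value of a named member or cluster sum changed direction. In knockout against wild-type NPC the 13 calls became 8 with a pseudocount of 0.1, 21 without the filter and 7 when only the NPC groups were fitted, and 6 to 11 with 1 library left out. The count of 32 in wild-type differentiation became 54, and that of 27 in the knockout 41, without the filter. Fewer or more genes enter the fit there, and otherwise the cause was not tested. The 8 differences between the knockout effects became 4 with the pseudocount of 0.1, and 4 to 7 with 1 library left out. Libraries share the replicate numbers 1 and 2, and the labels do not say whether same-numbered libraries belong together. Deviations of same-numbered libraries correlated from -0.0543 to 0.179. This cannot show whether they were handled together, and the main fit used no pairing. With the replicate block 14 members were called in knockout against wild-type NPC (6 rose, 8 fell), 7 in the difference of effects, and 0 in ESC. Over the named members 376 values under the alternatives stayed on their side of the threshold and 68 lost it. With single NPC libraries left out, an alternative chosen after seeing the data, the ratio of sums was 0.144 to 0.196 for alpha, 0.714 to 0.837 for beta and 1.34 to 1.43 for gamma. With 2 libraries a group this cannot move a ratio far, so it says nothing of stability. Depth limits several genes in knockout NPC: Pcdhb6 rests on 5.0 and 7.0 implied fragments there and Pcdh20 on 2.0 and 3.0. Pcdha4 rests on 0.0 and 7.4 there, and the whole alpha sum on 33.5 and 27.6.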
